A study of Homo sapiens with 17 samples.

Results

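BRD9 and 9 further genes that encode subunits of the non-canonical BAF complex were followed through the RNA-seq part of a study of HepG2 cells under metabolic stress. The members were chosen by symbol, as BRD9, BICRA, BICRAL, SMARCA4, SMARCA2, SMARCC1, SMARCD1, SS18, SS18L1 and ACTL6A. All 10 were found among the 17808 genes of the expression table, and all 10 passed the filter on low values, as did 12922 genes in all. HepG2 is a human liver cancer line, labelled as WT in genotype. The libraries were 3 from cells given 40 mM 2-DG (2-deoxyglucose, a glucose analogue that enters glycolysis and is not metabolised through it), 3 from cells given 40 mM Nala, named here as the labels write it, and 3 from untreated cells (NC). Titles gave 48 h for 2-DG and 24 h for NC, so the effect of 2-DG and that of time in culture cannot be told apart. For Nala the titles gave 48 h, while the series design gave 24 h. The 6 ChIP-seq and 2 ATAC-seq samples of the series were not analysed here, so the levels below are of RNA and say nothing of where BRD9 was bound.

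BAF complexes, the mammalian SWI/SNF family, use ATP to slide and evict nucleosomes and so open chromatin at enhancers and promoters. They are built in several forms around a SMARCA4 or SMARCA2 motor. The non-canonical form (ncBAF) is set apart by BRD9, whose bromodomain binds acylated lysines on histones, and by BICRA or its paralog BICRAL, which form the scaffold of the complex. It lacks the ARID proteins, SMARCB1 and SMARCE1 of the canonical form (cBAF) and of the polybromo form (PBAF). SMARCA4, SMARCC1, SMARCD1, SS18 and ACTL6A serve in ncBAF and in other BAF forms, so a change in their RNA is not one of ncBAF alone. The series title presents BRD9 as the reader of lactylation on H3K18, a histone mark fed by lactate.

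Libraries held 6199778 to 6653130 counted reads, and the members had between 269 and 2431 reads each in every library. Nala replicates 2 and 3 differed by less than the sampling noise, with a chi-square per degree of freedom of 0.904 over 12887 genes against 2.09 to 9.84 for the other pairs within a group. They were counted as 1 sample, which leaves n = 2 for every Nala mean, SD and test, while ranges cover all 3 Nala libraries. The series design calls the replicates biological without saying whether cultures were separate, so p-values measure the spread between these samples. Of 12 listed hepatocyte markers, 4 were among the genes of the expression table. The other 8 were absent from it and could not be analysed. HNF4A, a liver transcription factor, was at 2.178 to 3.305 RPKM with 2-DG, 1.607 to 2.155 RPKM with Nala and 1.406 to 2.384 RPKM in NC. APOB and TF, which encode secreted liver proteins, had means under 1 RPKM in every group. Both were thus at or near 0 in cells labelled as a liver cancer line, and the reason was not tested. An exact 0 in such a table can be a failed estimate, so these values do not show that APOB or TF was not expressed. Of 7 markers of immune, endothelial and fibroblast cells, PTPRC, PECAM1, VWF and DCN had means under 1 RPKM in every group, while COL1A1, COL3A1 and CD68 were measured above it.

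BRD9 lies on the minus strand of chromosome 5, from 863741 to 892801 in GRCh38.p14, and its start is 83 bp from that of TRIP13, which runs the other way. One stretch of DNA thus holds the starts of both genes, and it is shown here because their RNA levels differed in response (given further on). In the window chr5:892752-893051 of the RefSeq promoter table (GRCh38.p14, read on the minus strand, the direction of BRD9), BRD9 starts at position 251 and TRIP13 at position 168, and capitals mark the 82 bases between the starts.
BRD9 and TRIP13: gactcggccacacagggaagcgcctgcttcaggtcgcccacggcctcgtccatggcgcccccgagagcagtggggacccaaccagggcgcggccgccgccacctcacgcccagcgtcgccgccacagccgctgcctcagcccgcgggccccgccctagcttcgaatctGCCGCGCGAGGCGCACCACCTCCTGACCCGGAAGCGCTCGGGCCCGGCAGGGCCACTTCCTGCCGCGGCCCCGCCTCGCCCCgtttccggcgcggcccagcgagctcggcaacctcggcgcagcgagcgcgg
The window was 77.0% G and C with 43 CpG dinucleotides, against medians of 58.7% and 14 over 35116 promoters of the same length. The letters CCGGAAG, a core recognised by ETS factors, stood once between the starts, at positions 196 to 202. Those letters occurred on either strand in 10.3% of all promoters.

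SMARCA4 lies on the plus strand of chromosome 19, from 10961030 to 11062273, and its promoter is shown because it was the member with the largest change. In the window chr19:10960780-10961079 (GRCh38.p14, plus strand, RefSeq), the start is at position 251 and capitals mark a match to the NRF1 motif at positions 76 to 85.
SMARCA4: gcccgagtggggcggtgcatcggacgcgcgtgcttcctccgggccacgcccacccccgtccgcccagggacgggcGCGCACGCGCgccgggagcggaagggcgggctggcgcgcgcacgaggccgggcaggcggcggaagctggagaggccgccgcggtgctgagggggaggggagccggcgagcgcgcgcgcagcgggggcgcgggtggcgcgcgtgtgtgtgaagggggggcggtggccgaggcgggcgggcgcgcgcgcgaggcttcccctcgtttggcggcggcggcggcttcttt
This window was 81.3% G and C with 55 CpG dinucleotides, and the NRF1 motif was found in 5.8% of all promoters. RefSeq promoters were matched for 8 of the 10 members, 17 windows in all, and SMARCC1 and ACTL6A were not among them. The E2F letters TTTGGCGC and TTTCCCGC and the E-box letters CACGTG were searched on both strands and matched in none of the 17, against 2.3% and 7.3% of all promoters. CCAAT, the letters of the NFY box, stood in 1 window each of BICRAL and SS18, against 34.6% of all promoters. The ETS letters also stood in 1 window of SMARCA2. These matches are descriptions of the sequence and not sites of binding.

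Levels of the members in RPKM (reads scaled by gene length and library total, so that genes can be set against each other) spanned 6.95-fold in untreated cells. SMARCA4, BRD9, SMARCD1, SMARCC1 and ACTL6A stood highest there, at means of 58.5, 57.7, 55.5, 54.1 and 49.6 RPKM. SS18 and SS18L1 followed at 31.2 and 26.5 RPKM, then BICRA at 11.5, SMARCA2 at 8.69 and BICRAL at 8.42 RPKM. Neighbours in this order within the leading 5 overlapped between libraries, as did SMARCA2 and BICRAL, whereas ACTL6A and SS18, SS18 and SS18L1, SS18L1 and BICRA, and BICRA and SMARCA2 were separate in all 3 NC libraries. BRD9 stood at the 91.6th percentile of tested genes in NC, and BICRA and BICRAL, the subunits that with BRD9 define ncBAF, at the 38.2nd and 30.3rd. With 2-DG the order changed chiefly through SMARCA4, which ranked 6 of 10 there, against 1 in NC.

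**Figure D1:**
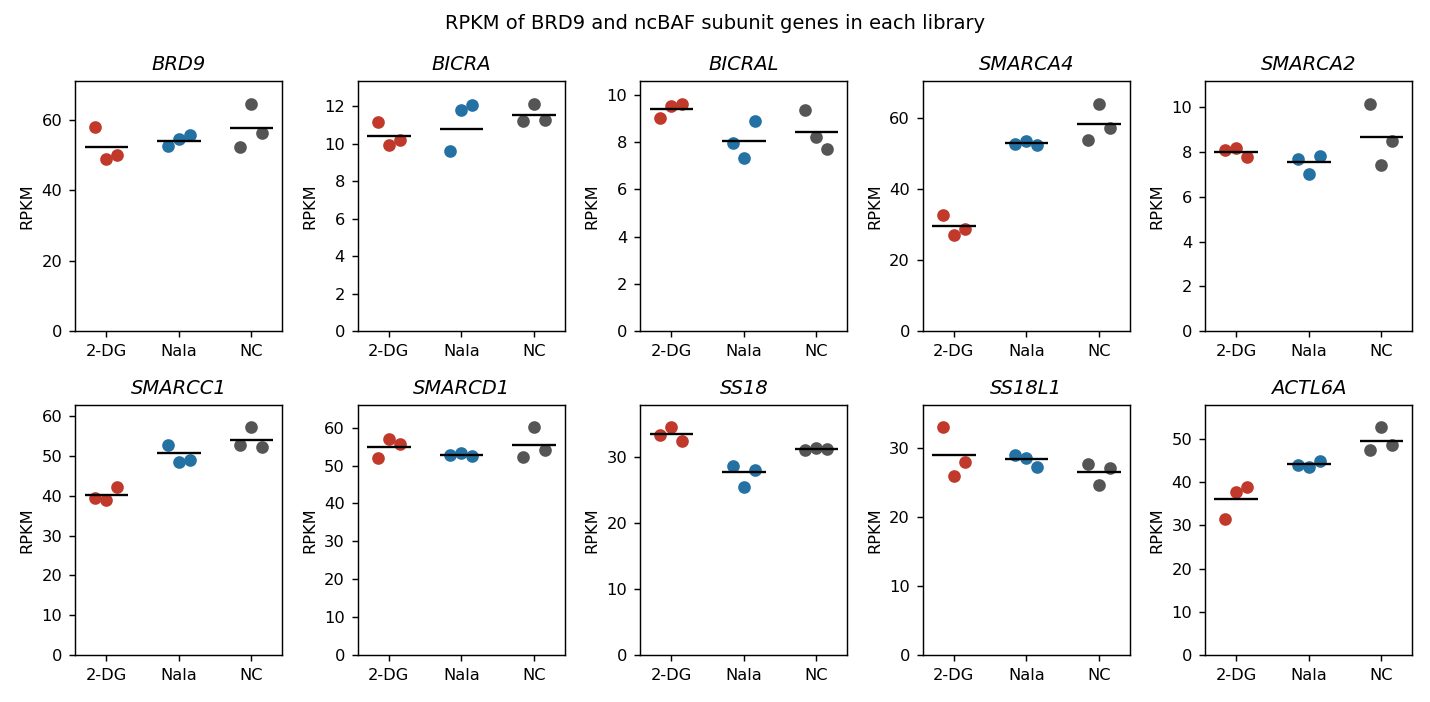
RPKM of each member (vertical axes, starting at 0) in the 3 libraries of 2-DG, Nala and NC; points are libraries and black lines group means, which for Nala are over n = 2 with replicates 2 and 3 averaged. SMARCA4, SMARCC1 and ACTL6A were lower in all 3 libraries with 2-DG than in any NC library, while BRD9 and SMARCD1 overlapped between all groups.

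BRD9 RNA did not differ beyond its spread in any comparison. It was at 58.1, 48.99 and 50.04 RPKM in 2-DG replicates 1 to 3, at 52.7, 54.6 and 55.8 RPKM in Nala replicates 1 to 3 and at 52.3, 64.6 and 56.3 RPKM in NC replicates 1 to 3. The 3 groups overlapped, with the lowest library in 2-DG and the highest in NC. The log2 fold change of 2-DG against NC was -0.14 (95% confidence interval -0.35 to 0.08, limma adjusted p = 0.278), that of Nala against NC -0.09 (interval -0.33 to 0.15, limma adjusted p = 0.997) and that of Nala against 2-DG 0.05 (interval -0.20 to 0.29, limma adjusted p = 0.771). These intervals leave room for a fall of up to 0.35 with 2-DG on the log2(RPKM + 1) scale, on which all fold changes here are given and which understates the change of low genes. The missed threshold does not show that the levels were equal.

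TRIP13, an ATPase of the spindle checkpoint that is transcribed away from BRD9, fell with 2-DG. It was at 32.6, 30.9 and 31.5 RPKM in 2-DG replicates 1 to 3, against 67.2, 69.3 and 65.7 RPKM in NC replicates 1 to 3, with Nala at 59.1 to 62.6 RPKM. The libraries of 2-DG lay far below all others. Its log2 fold change with 2-DG was -1.07 (SE 0.0632, limma adjusted p = 3.96e-06), and Nala against 2-DG gave 0.93 (limma adjusted p = 2.83e-05). Of the other neighbours, TBCC, a tubulin-folding cofactor whose start is 236 bp from that of BICRAL on the opposite strand, rose with 2-DG by 0.47 (SE 0.093, limma adjusted p = 0.00317). MRPL47, a mitochondrial ribosomal protein gene that overlaps the end of ACTL6A on chromosome 3, was not called with 2-DG at -0.24 (limma adjusted p = 0.141). The use of strand in counting was not given in the sources used here. Reads in such overlaps therefore cannot be assigned to one gene.

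**Figure D2:**
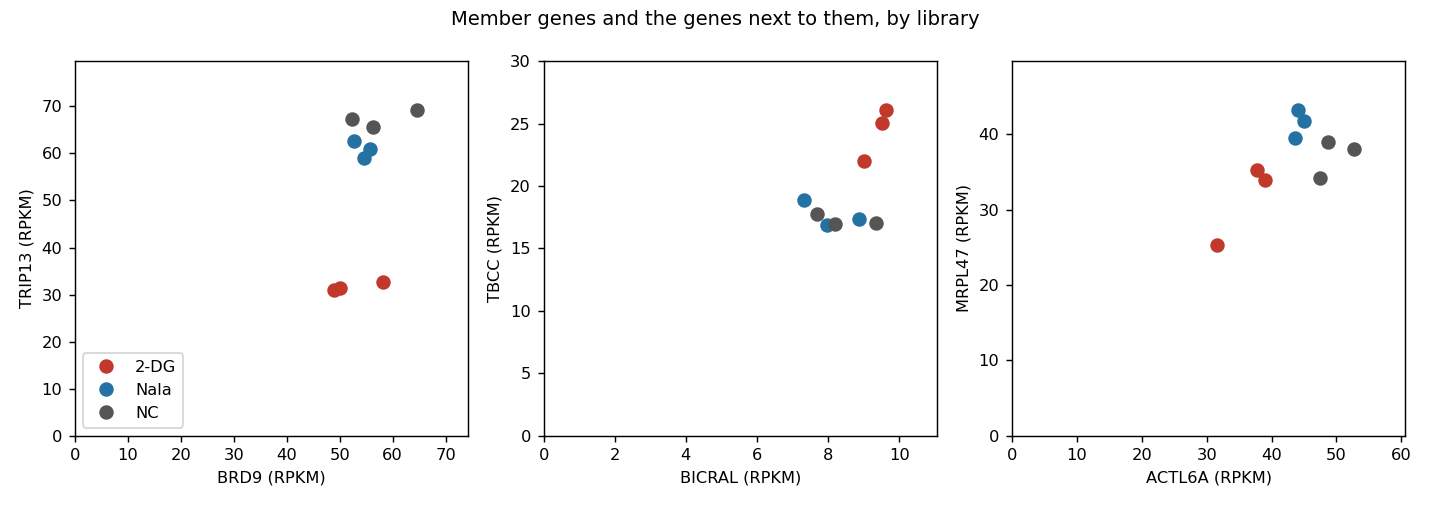
RPKM of BRD9, BICRAL and ACTL6A (horizontal axes) against the neighbouring genes TRIP13, TBCC and MRPL47 (vertical axes), all from 0, with 1 point per library coloured by group. TRIP13 lay between 30.9 and 32.6 RPKM in 2-DG libraries and between 65.7 and 69.3 RPKM in NC libraries, while BRD9 overlapped.

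BICRA and BICRAL, the paralogous scaffold genes of ncBAF, did not pass the test in any comparison. BICRA (chromosome 19, 47608196 to 47703277) was at 11.18, 9.91 and 10.2 RPKM in 2-DG replicates 1 to 3, against 11.19, 12.1 and 11.3 RPKM in NC replicates 1 to 3, a separation of 11.18 and 11.19 RPKM at the nearest (log2 fold change -0.13, limma adjusted p = 0.366). Nala libraries lay at 9.60 to 12.1 RPKM. BICRAL (chromosome 6, 42746339 to 42868556) was at 9.01 to 9.62 RPKM with 2-DG, at 7.32 to 8.88 RPKM with Nala and at 7.69 to 9.36 RPKM in NC, with a log2 fold change of 0.14 for 2-DG against NC (limma adjusted p = 0.315). None of the 3 genes that define ncBAF, BRD9 included, was called in any comparison. Over all tested genes 43.3% were called for 2-DG against NC, 0.0619% for Nala against NC and 35.9% for Nala against 2-DG. For 3 genes, the lack of a call is no result about the set.

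SMARCA4, the main ATPase motor of BAF complexes in dividing cells, fell with 2-DG to about 0.505 times its level in untreated cells. It was at 32.7, 27.1 and 28.8 RPKM in 2-DG replicates 1 to 3, against 53.8, 64.1 and 57.4 RPKM in NC replicates 1 to 3, and the groups were far apart. Nala libraries lay at 52.6 to 53.7 RPKM, below every NC library. The log2 fold change was -0.96 for 2-DG against NC (SE 0.0923, limma adjusted p = 6.14e-05) and 0.83 for Nala against 2-DG (SE 0.103, limma adjusted p = 3.94e-04), whereas Nala against NC gave -0.14 (95% interval -0.37 to 0.10, limma adjusted p = 0.997). In bulk RNA, fewer cells of a type and less RNA per cell cannot be told apart.

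SMARCA2 (chromosome 9, 2015347 to 2193620), the alternative ATPase motor, was not called in any comparison. It lay at 8.10, 8.18 and 7.76 RPKM in 2-DG replicates 1 to 3 and at 10.2, 7.43 and 8.48 RPKM in NC replicates 1 to 3, with the 2-DG libraries inside the range of NC. Its log2 fold change with 2-DG was -0.09 (interval -0.38 to 0.19, limma adjusted p = 0.569). SMARCA4 accordingly held 76.8% to 80.2% of the summed RPKM of both ATPase genes with 2-DG and 87.1% to 88.4% with Nala, against 84.1% to 89.6% in NC. The log2 difference SMARCA4 minus SMARCA2 averaged 1.76 with 2-DG and 2.62 in NC, a shift of -0.87 that was in the same direction between every pair of 2-DG and NC libraries. By a two-sided exact permutation test its p was 0.1, the smallest that 3 against 3 libraries allow, or 0.3 adjusted over the 9 tests of paralog pairs. The treatment of reads that match both paralogs was not given in the sources used here.

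BICRA held 51.1% to 55.4% of the summed RPKM of BICRA and BICRAL with 2-DG, 54.6% to 61.7% with Nala and 54.5% to 59.7% in NC, and these ranges overlapped (exact permutation p = 0.2 for 2-DG against NC, 0.36 adjusted over 9). SS18 held 50.3% to 57.1% of the pair with SS18L1 with 2-DG, 47.2% to 50.8% with Nala and 52.8% to 56.0% in NC. The Nala libraries lay below those of NC in this share (exact permutation p = 0.1, the smallest possible, and 0.3 adjusted over 9).

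**Figure D3:**
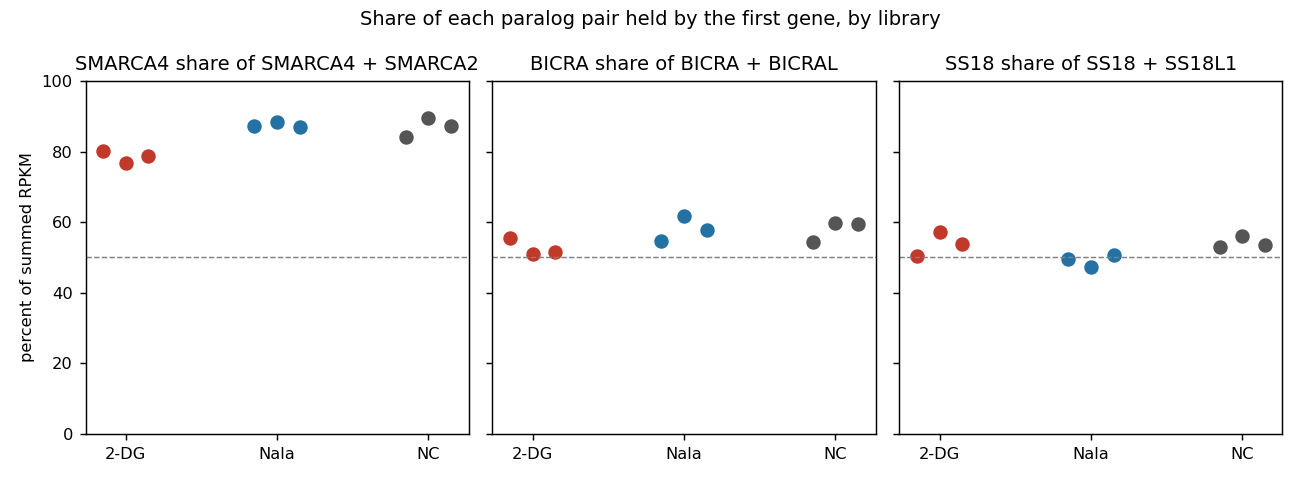
Share of the summed RPKM of each paralog pair held by the first gene named (vertical axis, percent, 0 to 100), with 1 point per library in 2-DG, Nala and NC and a dashed line at equal shares. The SMARCA4 share was 76.8% to 80.2% with 2-DG and 84.1% to 89.6% in NC.

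SMARCC1 (chromosome 3, 47585269 to 47781893), a core scaffold subunit common to BAF complexes, fell with 2-DG. Its values were 39.4, 38.9 and 42.3 RPKM in 2-DG replicates 1 to 3, against 52.7, 57.2 and 52.3 RPKM in NC replicates 1 to 3, without overlap. The log2 fold change was -0.42 (SE 0.0724, limma adjusted p = 0.00166). Nala libraries, at 48.6 to 52.8 RPKM, overlapped with NC (log2 fold change -0.09, limma adjusted p = 0.997). They lay above those of 2-DG (log2 fold change 0.33, limma adjusted p = 0.0121). Leaving out Nala replicate 1 leaves 1 Nala sample, so only the log2 fold change against 2-DG is given for it, 0.27.

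ACTL6A (chromosome 3, 179562926 to 179588407), an actin-related subunit that joins the ATPase module, fell as well. It was at 31.6, 37.7 and 38.99 RPKM in 2-DG replicates 1 to 3, against 47.4, 52.7 and 48.8 RPKM in NC replicates 1 to 3. Every 2-DG library lay below every NC library, and replicate 1 of 2-DG was the lowest. The log2 fold change was -0.45 (SE 0.0907, limma adjusted p = 0.00351). Nala libraries, at 43.7 to 44.95 RPKM, lay between both groups without overlap, and Nala was called against neither NC (log2 fold change -0.16, limma adjusted p = 0.997) nor 2-DG (0.29, limma adjusted p = 0.0505). The last value passed the threshold in 8 of the 20 alternatives.

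SMARCD1 (chromosome 12, 50085342 to 50100707), which links BAF to transcription factors, had the smallest difference between 2-DG and NC among the members. It lay at 52.1 to 57.1 RPKM with 2-DG, 52.6 to 53.4 RPKM with Nala and 52.2 to 60.1 RPKM in NC. The log2 fold change of 2-DG against NC was -0.01 (interval -0.18 to 0.15, limma adjusted p = 0.917). The libraries of SMARCD1 and BRD9 overlapped in every group.

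SS18 (chromosome 18, 26016253 to 26091219), the subunit that is fused to SSX genes in synovial sarcoma, was lower with Nala than with 2-DG. It was at 28.6, 25.5 and 28.1 RPKM in Nala replicates 1 to 3, against 33.3, 34.5 and 32.5 RPKM in 2-DG replicates 1 to 3, with NC in between at 31.03 to 31.4 RPKM. The 3 groups did not overlap, and the NC libraries lay close together. For Nala against 2-DG the log2 fold change was -0.26 (SE 0.0799, limma adjusted p = 0.029), while 2-DG against NC gave 0.10 (limma adjusted p = 0.307) and Nala against NC -0.17 (interval -0.35 to 0.01, limma adjusted p = 0.93). The call of Nala against 2-DG was lost without 2-DG replicate 2, 2-DG replicate 3 or NC replicate 3 (limma adjusted p = 0.0824, 0.0629 and 0.0535). It was also lost in the fit of these groups alone (limma adjusted p = 0.0566). Leaving out Nala replicate 1 leaves 1 Nala sample, so only the log2 fold change is given for it, -0.31. SS18L1 (chromosome 20, 62143769 to 62182514), its paralog, was not called in any comparison, with 25.9 to 32.95 RPKM with 2-DG, 27.2 to 28.99 RPKM with Nala and 24.7 to 27.7 RPKM in NC.

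**Figure D4:**
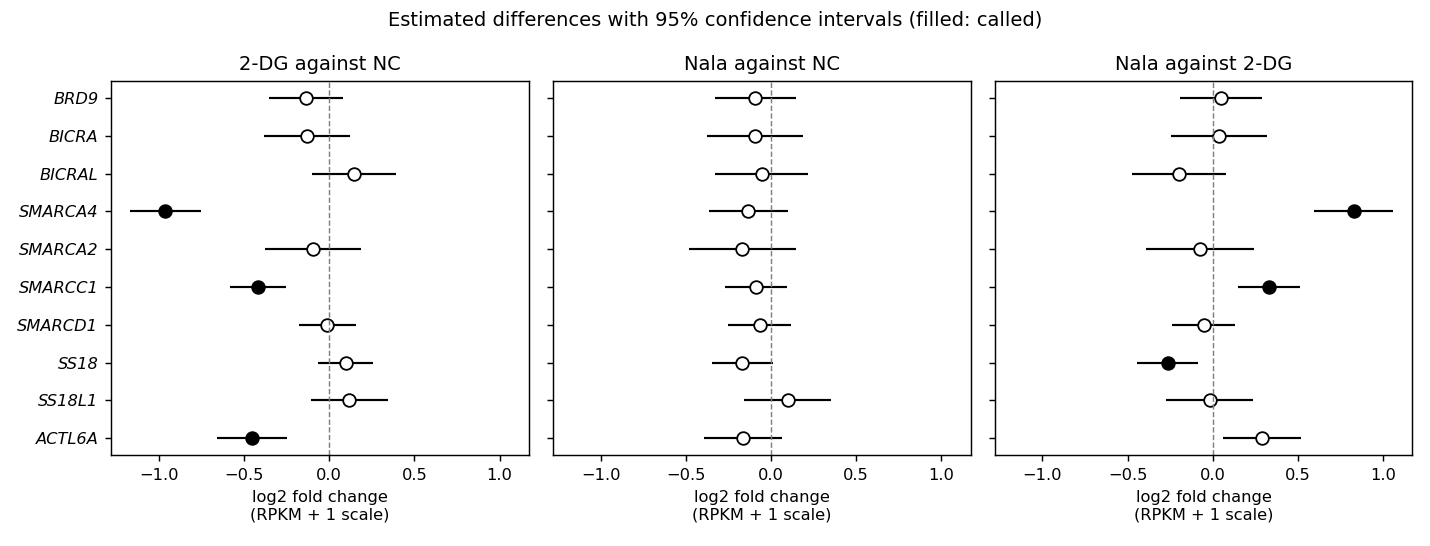
Log2 fold change of each member on the log2(RPKM + 1) scale (horizontal axis) with its 95% confidence interval from limma, in the 3 comparisons; filled points passed an adjusted p of 0.05. SMARCA4 at -0.96, SMARCC1 at -0.42 and ACTL6A at -0.45 were called for 2-DG against NC, and no member was called for Nala against NC.

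Counted together, 3 of the 10 members fell and none rose with 2-DG, where 43.3% of all 12922 tested genes were called, 20.7% lower and 22.6% higher. For 10 members, 3 calls are near these shares and are no result about the set. The median log2 fold change was -0.11 over the members, against 0.02 over all tested genes. Libraries of 2-DG and NC did not overlap for 4 members that were lower and 1 that was higher, where 25% and 27.1% of tested genes did so (52.1% in either direction). SMARCA4, SMARCC1 and ACTL6A were called in all 20 alternative settings, and in no setting was another member called. The summed RPKM of the 10 members was 297.8 to 308.4 with 2-DG, 334.0 to 339.0 with Nala and 348.0 to 382.5 in NC. NC replicate 2 held the highest value of its group in 7 of the 10 members, and without it SMARCA4, SMARCC1 and ACTL6A were again the members called. Of the markers of other cell types, the summed level of all 7 was 41.1 to 52.8 RPKM with 2-DG, 72.96 to 80.4 RPKM with Nala and 60.9 to 87.1 RPKM in NC, with COL3A1 and CD68 lower with 2-DG (log2 fold changes -1.94 and -1.02, limma adjusted p = 8.32e-05 and 0.00325). COL1A1, the third of these markers tested, was not called, at 26.1 to 42.8 RPKM with 2-DG and 28.0 to 59.1 RPKM in NC. The part of these markers in the members' differences was not tested.

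With Nala, none of the 10 members was called against NC by limma, where 0.0619% of tested genes were, 8 in all. At an unadjusted p under 0.05 the count of members was again 0, where 725 of the 12922 tested genes passed, and voom on recovered reads also called 0. Of the members 9 had a negative log2 fold change, the largest in size being SMARCA2 at -0.17, with a median of -0.09 against 0.01 over all genes. SMARCA4, SS18 and ACTL6A were lower in all 3 Nala libraries than in any NC library, which 8.03% of tested genes were (18.2% did not overlap in either direction, and 10.2% were higher). Because all 3 comparisons share libraries, these values are not independent of those for 2-DG. Against 2-DG, Nala had 2 members called higher (SMARCA4 and SMARCC1) and 1 lower (SS18), where 17.9% and 18% of tested genes were called. The 3 calls in 10 members are again near the share over all genes in either direction, 35.9%. Nala and 2-DG libraries did not overlap for 5 members, 2 of them lower with Nala (BICRAL and SS18) and 3 higher (SMARCA4, SMARCC1 and ACTL6A), where 29.4% and 28.9% of tested genes did so, 58.2% in all.

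BCL7A, BCL7B, BCL7C and ACTB, the remaining small subunits that ncBAF shares with other BAF forms, were mixed. On the log2 scale BCL7C fell by 0.64 with 2-DG (SE 0.104; limma adjusted p = 0.00124), with 116 to 143 reads in the 2-DG libraries, against 200 to 219 in those of NC. BCL7A had 23.1, 28.0 and 28.7 RPKM in 2-DG replicates 1 to 3, against 23.3, 19.5 and 19.9 RPKM in NC replicates 1 to 3, and rose by 0.33 (limma adjusted p = 0.0405). The BCL7A call was lost in 8 alternatives, among them those without 2-DG replicate 2, 2-DG replicate 3, NC replicate 2, NC replicate 3 or Nala replicate 1 (limma adjusted p = 0.119, 0.141, 0.116, 0.123 and 0.0564). BCL7B and ACTB, which has near-identical relatives among the actins, were not called (log2 fold changes 0.16 and -0.13).

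Subunits that ncBAF lacks gave 2 lower and 1 higher call with 2-DG among 12 tested of 15, with a median of -0.10. Over all tested genes 20.7% were called lower and 22.6% higher. DPF1, a PHD finger subunit of cBAF found mainly in neurons, was at 0.714 to 1.12 RPKM with 2-DG, against 5.46 to 7.26 RPKM in NC, and fell by 1.87 (SE 0.176, limma adjusted p = 5.51e-05). ARID1A, the scaffold of cBAF, fell by 0.30 (limma adjusted p = 0.0201), a call lost without NC replicate 2 or NC replicate 3 (limma adjusted p = 0.0647 and 0.0786). DPF2, the widely expressed relative of DPF1, rose by 0.21 (limma adjusted p = 0.0476), a call lost in 11 alternatives. SMARCB1, the core subunit that ncBAF does not contain, was listed at 0 in all 2-DG libraries, at 0 to 0.174 RPKM with Nala and at 0, 1.59 and 0 RPKM in NC replicates 1 to 3, and did not pass the filter. The 1.59 RPKM came from 18 reads. An exact 0 in such a table can be a failed estimate, so these values do not show that SMARCB1 was not expressed. SMARCC2 and SMARCE1, which serve beside it in cBAF, were measured at 49.1 to 63.1 and 31.8 to 42.9 RPKM over the 9 libraries. ARID2 and PBRM1, which define PBAF, and BRD7, the closest relative of BRD9, were not called with 2-DG.

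BRD7 encodes the bromodomain subunit of PBAF, and it was at 25.7 to 27.5 RPKM with 2-DG, 29.5 to 32.1 RPKM with Nala and 27.9 to 33.6 RPKM in NC. Among 31 other bromodomain genes tested, 7 fell and 6 rose with 2-DG, with a median log2 fold change of -0.04. These counts are near the shares over all tested genes, 20.7% lower and 22.6% higher. ATAD2, which joins a bromodomain to an AAA ATPase, fell by 1.27 (SE 0.0887, limma adjusted p = 9.78e-06), PHIP by 0.87 and ZMYND8 by 0.70. BRPF3, a scaffold of histone acetyltransferases, rose by 0.75 (SE 0.158, limma adjusted p = 0.00469). The count that rose was 3 without 2-DG replicate 2, and 2 without 2-DG replicate 3 or without NC replicate 3. BRD9 was not called, as were 18 of those 31.

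ATPases of other remodeller families gave 11 lower and no higher calls with 2-DG among 18 tested of 19, with a median of -0.29. Over all tested genes 20.7% were called lower and 22.6% higher with 2-DG, and the list was not tested as a set. HELLS, a remodeller ATPase with a part in DNA methylation, fell by 1.19 (SE 0.104, limma adjusted p = 3.46e-05), CHD7 by 0.64, CHD1L by 0.57 and ATRX by 0.33. The ATRX call was lost without 2-DG replicate 2, 2-DG replicate 3, NC replicate 1 or NC replicate 3, with a limma adjusted p of up to 0.111. The count of lower calls was 6 without 2-DG replicate 3 and 7 without NC replicate 3. SMARCA4, at -0.96, lay between HELLS and CHD7 in size, a difference between genes that was not tested. With Nala none of the 18 was called against NC by limma, and 2 had an unadjusted p under 0.05, as did 725 of all 12922 tested genes.

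**Figure D5:**
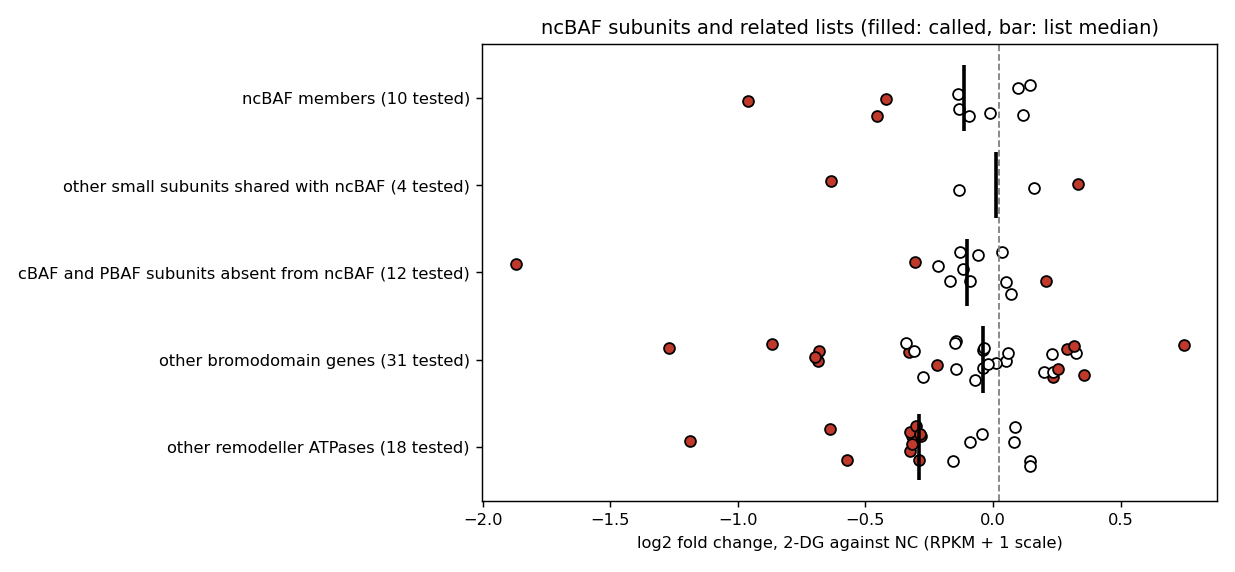
Log2 fold change of 2-DG against NC on the log2(RPKM + 1) scale (horizontal axis) for the ncBAF members and 4 related gene lists, with 1 point per tested gene, filled where limma called it, a bar at each list's median and a dashed line at the median of all tested genes. The members had a median of -0.11 and 3 calls, and the other remodeller ATPases a median of -0.29 and 11 calls, all lower. Of all tested genes, 20.7% were called lower and 22.6% higher.

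Genes with the profile most like that of BRD9 were sought among 10266 genes with a mean of at least 5 RPKM, by the root mean square difference of mean-centred log2(RPKM + 1) values over 8 samples. AARS2, SRSF4, SMPD2, SRSF6 and NDUFB9 were closest, at 0.037 to 0.0459. AARS2, a mitochondrial alanyl-tRNA synthetase, was at means of 23.95 RPKM with 2-DG, 24.7 with Nala and 25.7 in NC. For SMARCA4 the closest were CENPO, THOP1, TCOF1, TTF2 and RECQL4, at 0.0652 to 0.0797. CENPO, a centromere protein, was at means of 10.4 RPKM with 2-DG, 19.6 with Nala and 20.5 in NC, and TCOF1, a nucleolar protein, at 30.7, 59.6 and 60.5 RPKM in the same order. These likenesses rest on the same libraries and are a description.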

How the data were processed

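RNA-seq levels were analysed in 9 libraries, 3 each of 2-DG, Nala and NC, grouped by the library names in the labels. The authors deposited RPKM values, which covered 17808 genes in each library. The submitters' processing notes name hg38 and, with no role or order, HOMER 4.8.3, STAR 2.7.6a, RSEM 1.2.8, HISAT2 2.1.0, fastp 0.23.1, Bowtie2 2.2.5, MACS2 2.2.7.1 and DESeq. The step that made the RPKM values was not given in the sources used here. Whole reads were recovered from the RPKM steps for 100% of genes, within 0.0001 reads, and gave each library's total. The densest gene had 1.21 reads per base and the densest member 0.354.

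Genes that reached 1 RPKM in 3 or more libraries were tested as log2(RPKM + 1) with limma 3.58.1 (R 4.3.3) and an intensity trend, all groups in one fit of 8 samples with 5 residual degrees of freedom. P-values were adjusted by Benjamini-Hochberg over all tested genes within a comparison, and an adjusted p under 0.05 was called. Paralog ratios used two-sided exact permutation tests. Members and gene lists, and the averaging of Nala replicates 2 and 3, were chosen with earlier results of these data known. The genes named are all members, genes within 1000 bp of a member's start or overlapping it, up to 4 called genes with the largest change per list, and the 5 most alike for BRD9 and SMARCA4. SMARCB1, SMARCC2, SMARCE1, ARID2, PBRM1, BRD7, BCL7B and ACTB lie outside these rules and were chosen after their values were seen. Positions and promoters are from RefSeq on GRCh38.p14, the assembly of hg38. Of the 4 listed hepatocyte markers analysed, 1 is not reported here, nor is their summed level.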

Additional observations from a re-analysis of the deposited data

How the results depend on the processing

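Among the 20 alternatives the members called for 2-DG against NC were the same 3 each time, and 0 members were called for Nala against NC each time. Leaving out Nala replicate 1 leaves 1 Nala sample, so its counts for the Nala comparisons are left out of the ranges that follow. For Nala against 2-DG the count of members, 3, ranged from 2 to 4 on leaving out 1 library and from 2 to 4 in the other alternatives. Calls over all genes for Nala against NC numbered 8. The count was 25 without a filter, 15 with a filter of 5 RPKM, 13 with median-of-ratios scaling and 17 with quantile normalization. It was 16 with a common library sum, 64 with Nala replicates 2 and 3 kept apart and 54 with voom on recovered reads. On leaving out 1 library other than Nala replicate 1 it was 4 to 23. Calls over all genes for Nala against 2-DG, 4639 in all, ranged from 3534 to 5261 on leaving out 1 library other than Nala replicate 1. Without Nala replicate 1 the count was 2212, outside this range. With 1 Nala sample in that fit, no conclusion is drawn from it. The replicate number as a block, with Nala replicates 2 and 3 kept apart, gave 5867, 31 and 5708 calls over all genes for 2-DG against NC, Nala against NC and Nala against 2-DG, and 3, 0 and 4 members. Correlations of deviations were -0.119 to 0.0772 between same-numbered replicates and -0.12 to 0.142 between differently numbered ones. With 3 replicates per group this check cannot decide whether same-numbered samples shared a culture or batch. The block was compared with 6019, 64 and 5858 calls in the same form without it. The cause of these shifts was not tested. The differences of the paralog pairs stayed within 1 SD of their values in each alternative run for them. With 2 samples of Nala, small differences could be missed.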
